A study of Oncorhynchus mykiss with 12 samples.

Results

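The melanosome membrane genes of rainbow trout (Oncorhynchus mykiss) skin were followed through 9 gene names: oca2, slc45a2, slc24a5, slc24a4, GPR143, tspan36, tspan10, trpm1 and atp7a. Every entry of the RNA-Seq table whose symbol is a name from this set, ignoring case and an a or b copy ending, was taken, which gave 20 copies of 42290 entries. The groups were dorsal skin of yellow mutant trout, a colour form of the species, and dorsal skin of wild-type trout, with 3 samples each. Per the series text, both are offspring (F1) of a cross between wild-type males and yellow mutant females. The labels give no age, do not name the mutated gene, and do not say whether a sample is a single fish or a pool, so p-values here reflect the spread among these samples alone, which may be technical. Expression is in FPKM, a fragment number divided by transcript length and library size, so levels can be set against each other between genes.

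The melanosome is the organelle in which pigment cells make and store melanin. Its membrane holds channels, exchangers and pumps that set the pH, calcium and copper inside it, on which the melanin enzyme tyrosinase depends. Loss of several of these genes lightens skin, hair or eyes in humans, mice and zebrafish. Tetraspanins are small proteins that cross a membrane several times and organise other proteins there. In a whole piece of skin, a different number of pigment cells and a different amount of RNA per pigment cell cannot be told apart.

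Levels of tspan36 (gene 110525244) were about 3 times as high in yellow mutant as in wild-type skin. The calcium exchanger slc24a5, the receptor GPR143 (gene 110520432), Tspan10 and the sugar transporter slc45a2 had smaller positive differences. The chloride channel gene oca2 and the abundant TRPM1 copy had similar means in both skins, with wide intervals. No copy passed the threshold after adjustment over every gene tested (limma with Benjamini-Hochberg, adjusted p under 0.05: 0 of 13 tested copies, against 9 of 27268 genes, 0.033%).

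Of the 20 copies, 13 reached 0.5 FPKM in at least 3 of the 6 samples and were tested, and their lowest value in any sample was 1.49 FPKM. The other 7 stayed below 1 FPKM in each sample. Of the 13, 6 had an unadjusted limma p under 0.05, all higher in yellow mutant skin, where 3.41% of all genes tested were higher and 2.59% lower at that level. This count of 6 became 3 without yellow mutant replicate 3 and 3 without wild-type replicate 1. Over all genes tested, 1637 were at that level in either direction. That number was 1051 without yellow mutant replicate 3 and 1304 without wild-type replicate 1. In 4 of the 13 every yellow mutant sample lay above every wild-type sample, against 6.07% of all genes tested. In 0 every yellow mutant sample lay below, against 4.92% of all genes tested. The log2 fold change was above 0 in 12 of the 13, against 53% of all genes tested. The median was 0.28, against 0.01 over all genes tested. These counts describe a list chosen with earlier results of these data known, and copies of a name may share reads, so they are not independent.

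**Figure D1:**
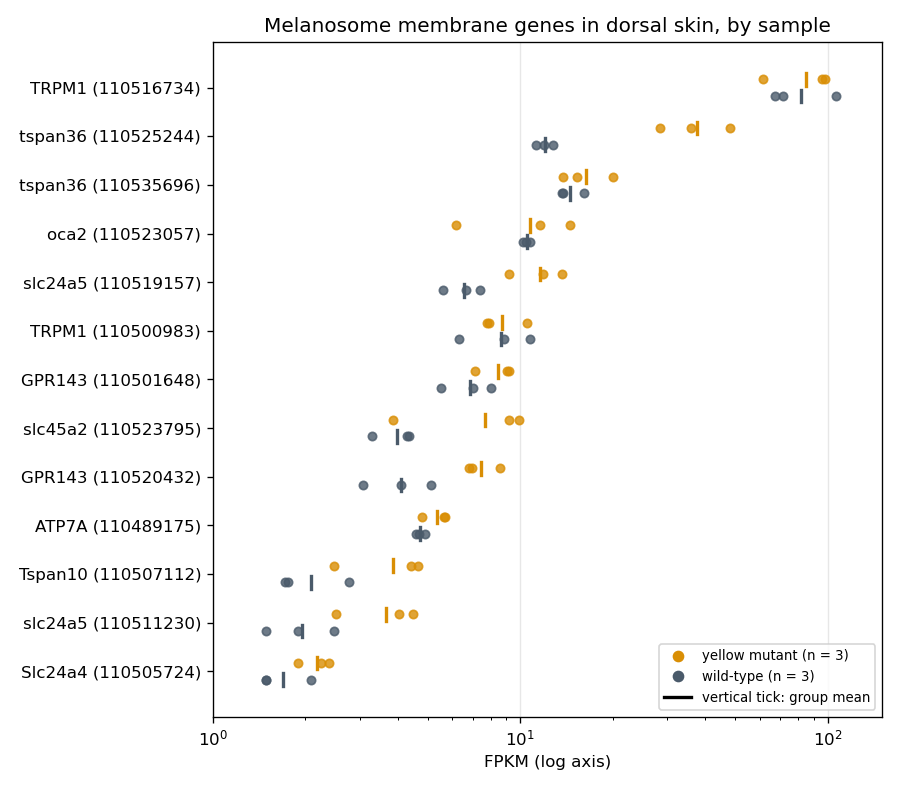
FPKM (log axis) of the 13 tested copies in each of the 3 yellow mutant samples (orange, upper row of each pair) and the 3 wild-type samples (grey, lower row), with a tick at each group mean. The yellow mutant points of tspan36 (110525244) start at 28.5 FPKM, above the highest wild-type point at 12.8 FPKM, while those of oca2 run from 6.16 to 14.5 FPKM around the wild-type points.

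In yellow mutant skin the order of mean levels began with TRPM1 (gene 110516734) at 85.0 FPKM, tspan36 (gene 110525244) at 37.5 FPKM and tspan36 (gene 110535696) at 16.4 FPKM, and the sample ranges of these neighbours did not overlap. The next 6 copies, from slc24a5 (gene 110519157) at 11.6 FPKM to GPR143 (gene 110520432) at 7.44 FPKM, formed a run in which neighbours overlapped, and a gap followed before ATP7A (gene 110489175) at 5.38 FPKM. In wild-type skin TRPM1 (gene 110516734) also came first, at 81.7 FPKM, but tspan36 (gene 110535696), at 14.5 FPKM, stood above tspan36 (gene 110525244), at 12.0 FPKM, with no overlap between the samples of the 2 copies. There the run of overlapping neighbours went from oca2 at 10.5 FPKM to slc24a5 (gene 110519157) at 6.57 FPKM. By mean, GPR143 (gene 110520432) and slc45a2, at 4.10 and 3.97 FPKM, stood below ATP7A at 4.71 FPKM. The wild-type samples of this GPR143 copy, from 3.08 to 5.12 FPKM, overlapped those of ATP7A, from 4.56 to 4.89 FPKM, and those of slc45a2. The lowest tested copy in both skins was Slc24a4 (gene 110505724), at 2.18 and 1.69 FPKM in yellow mutant and wild-type skin.

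The tetraspanin tspan36 is used as a marker of pigment cells in zebrafish. Its copy 110525244 had 35.8, 28.5 and 48.1 FPKM in the yellow mutant samples, against 11.9, 11.3 and 12.8 FPKM in the wild-type samples. All yellow mutant samples lay above all wild-type samples, and the wild-type samples were close together. The means were 37.5 ± 9.90 FPKM in yellow mutant and 12.0 ± 0.777 FPKM in wild-type skin (SD, n = 3 each), a 3.13-fold ratio of means. The log2 fold change on log2(FPKM + 1), a scale that understates the change of low genes, was 1.54 (standard error 0.21, 95% interval 1.06 to 2.01), and it ranked 25th by p among all genes tested. It missed the 0.05 threshold (adjusted p = 0.0846, limma with Benjamini-Hochberg). In the authors' deposited table the same copy had an FDR of 4.18e-09, from a test that is not named.

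The other tspan36 copy, 110535696, had 19.97, 13.8 and 15.3 FPKM in the yellow mutant samples, against 13.8, 13.7 and 16.1 FPKM in the wild-type samples. These groups overlapped, and the log2 fold change was 0.15 (95% interval -0.25 to 0.56). It was 0.0063 without yellow mutant replicate 1, 0.26 without yellow mutant replicate 2 and 0.30 in the fit with relative depth. Within a sample, copy 110525244 made up 64.2%, 67.4% and 75.9% of the summed tspan36 FPKM in yellow mutant skin, against 46.4%, 45.1% and 44.4% in wild-type skin. The log2 ratio of the copies, each as FPKM + 1, averaged 1.13 ± 0.41 in yellow mutant and -0.25 ± 0.06 in wild-type skin (SD, n = 3 each), a difference of 1.39 (exact permutation test, two-sided, p = 0.1, the smallest that 3 against 3 samples can give). In RefSeq's gene order (assembly USDA_OmykA_1.1) both copies have a Mapk4 entry on one side, while the neighbour on the other side is H1-2 for copy 110525244 and a lncRNA for copy 110535696. The handling of reads that match both copies is not given in the labels or files, so the split between copies is uncertain here and for the other paired names.

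Tspan10 belongs to the tetraspanins that help the protease ADAM10 mature, and its human gene is linked to eye colour. Copy 110507112 had 4.64, 2.48 and 4.40 FPKM in the yellow mutant samples, against 1.72, 2.76 and 1.76 FPKM in the wild-type samples. Yellow mutant replicate 2 lay below wild-type replicate 2, so the groups overlapped. The log2 fold change was 0.64 (standard error 0.22, limma, unadjusted p = 0.0216, Benjamini-Hochberg adjusted p = 0.762). Copy 110487478 was not tested and reached 0.999 FPKM at most, in yellow mutant replicate 2.

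**Figure D2:**
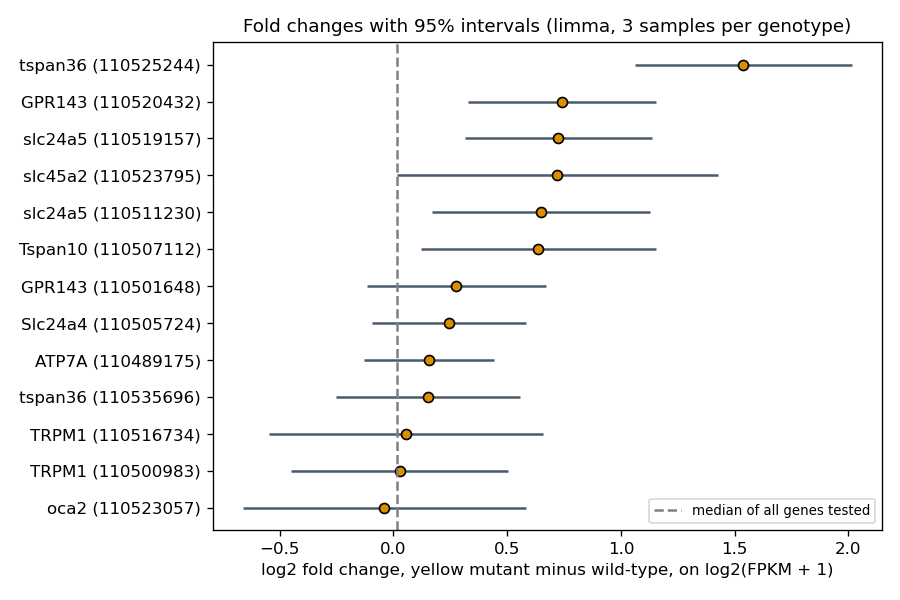
Log2 fold change of each tested copy (points, yellow mutant minus wild-type, on log2(FPKM + 1)) with its 95% interval from limma, beside the median of all genes tested (dashed, 0.01). The interval of tspan36 (110525244) runs from 1.06 to 2.01, and those of both TRPM1 copies and oca2 span 0.

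The potassium-dependent sodium/calcium exchanger encoded by slc24a5 moves calcium, and its loss gives the pale golden zebrafish. Copy 110519157 had 11.8, 9.19 and 13.7 FPKM in the yellow mutant samples, against 7.42, 5.61 and 6.67 FPKM in the wild-type samples. Copy 110511230, which was lower throughout, had 2.51, 4.02 and 4.48 FPKM in the yellow mutant samples, against 1.49, 1.90 and 2.49 FPKM in the wild-type samples. The groups did not overlap in either copy, although the margin in copy 110511230 was narrow, between 2.51 FPKM in yellow mutant replicate 1 and 2.49 FPKM in wild-type replicate 3. The log2 fold changes were 0.72 (95% interval 0.31 to 1.14) and 0.65 (0.17 to 1.13) for copies 110519157 and 110511230 (limma, Benjamini-Hochberg adjusted p = 0.530 and 0.733). The log2 ratio between these copies was 1.44 ± 0.43 in yellow mutant and 1.36 ± 0.35 in wild-type skin (SD, n = 3 each), a difference of 0.08 that was within the spread (exact permutation test, two-sided, p = 0.9). Both copies lie between a Myef2 and an RNF128 entry in the RefSeq gene order.

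The related exchanger gene slc24a4 is associated with human hair and eye colour and works in tooth enamel. It has 4 copies in the table, and only Slc24a4 copy 110505724 was tested. That copy had 2.25, 2.38 and 1.89 FPKM in the yellow mutant samples, against 1.49, 1.49 and 2.08 FPKM in the wild-type samples, with overlap. Its log2 fold change was 0.24 (95% interval -0.09 to 0.58). Slc24a4 copy 110497740 ranged from 0.342 to 0.488 FPKM in yellow mutant and from 0.204 to 0.401 FPKM in wild-type skin. Slc24a4 copies 110522553 and 110529773 did not exceed 0.055 FPKM in any sample.

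The chloride channel encoded by oca2 raises melanosome pH, and loss of its human gene gives a common form of albinism. It had 11.6, 6.16 and 14.5 FPKM in the yellow mutant samples, against 10.5, 10.8 and 10.2 FPKM in the wild-type samples. Yellow mutant replicate 2 was below every wild-type sample and the other yellow mutant samples were above every wild-type sample. The SD was 4.23 FPKM in yellow mutant and 0.287 FPKM in wild-type skin. The log2 fold change was -0.04 although the ratio of means was 1.02, since the means of log values and of FPKM are ordered differently here. Without yellow mutant replicate 2 the log2 fold change was 0.28, and in a fit that included relative depth it was 0.27 (limma, Benjamini-Hochberg adjusted p = 0.729 and 0.839).

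The gene slc45a2 encodes a sugar and proton transporter that also acts on melanosome pH. It had 9.90, 3.86 and 9.18 FPKM in the yellow mutant samples, against 4.27, 4.34 and 3.29 FPKM in the wild-type samples. Yellow mutant replicates 1 and 3 were above every wild-type sample, and replicate 2 lay within the wild-type range. The log2 fold change was 0.72 (standard error 0.30, limma, unadjusted p = 0.0465, Benjamini-Hochberg adjusted p = 0.830). It was 1.09 without yellow mutant replicate 2 and 1.15 in the fit with relative depth (limma, Benjamini-Hochberg adjusted p = 0.145 and 0.240). The log2 fold change was 0.51 without yellow mutant replicate 1, 0.56 without its replicate 3 and 0.62 without wild-type replicate 3. Over its 13 alternatives it ran from 0.51 to 1.15.

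GPR143 is a receptor of the melanosome membrane, mutated in ocular albinism of humans, where it controls melanosome size and number. Copy 110520432 had 8.58, 6.79 and 6.95 FPKM in the yellow mutant samples, against 3.08, 5.12 and 4.11 FPKM in the wild-type samples, with no overlap. Copy 110501648 had 9.07, 9.17 and 7.13 FPKM in the yellow mutant samples, against 5.50, 8.004 and 7.02 FPKM in the wild-type samples, with overlap. The log2 fold changes were 0.74 (95% interval 0.33 to 1.15) and 0.28 (-0.12 to 0.67) for copies 110520432 and 110501648 (limma, Benjamini-Hochberg adjusted p = 0.518 and 0.896). Without wild-type replicate 1 the log2 fold change of copy 110501648 was 0.15. Copy 110501648 held 51.4%, 57.4% and 50.6% of the summed GPR143 FPKM in yellow mutant skin, against 64.1%, 61.0% and 63.1% in wild-type skin. The log2 ratio of copy 110501648 over 110520432 was 0.16 ± 0.19 in yellow mutant and 0.63 ± 0.06 in wild-type skin (SD, n = 3 each), a difference of -0.46 (exact permutation test, two-sided, p = 0.1). Both copies lie between a Tbl1xr1 and an Asb9 entry.

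ATP7A pumps copper, which tyrosinase needs, into the secretory pathway and melanosomes. Copy 110489175 had 4.79, 5.68 and 5.65 FPKM in the yellow mutant samples, against 4.68, 4.56 and 4.89 FPKM in the wild-type samples. The spread was small in both groups, and the log2 fold change was 0.16 (95% interval -0.13 to 0.44), and 0.09 in the fit with relative depth. Copy 110504534 did not exceed 0.085 FPKM in any sample.

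TRPM1 is a cation channel of melanocytes and of retinal bipolar cells, and in mammals the pigment cell factor MITF drives its transcription. TRPM1 copy 110516734, the most abundant of all members, had 97.6, 61.5 and 95.9 FPKM in the yellow mutant samples, against 71.5, 67.4 and 106 FPKM in the wild-type samples. The groups overlapped, with the lowest value in yellow mutant replicate 2 and the highest in wild-type replicate 3, and the log2 fold change was 0.06 (95% interval -0.54 to 0.66). TRPM1 copy 110500983 had 7.81, 7.89 and 10.5 FPKM in the yellow mutant samples, against 6.33, 8.86 and 10.8 FPKM in the wild-type samples, with a log2 fold change of 0.03 (95% interval -0.45 to 0.50). TRPM1 copies 110500985 and 118944560 stayed at or below 0.688 FPKM. In the RefSeq gene order 110500985, 118944560 and 110516734 are consecutive genes, and the next gene after them is klf13. Nearly all of their summed FPKM was in 110516734, and whether these entries are parts of a single gene was not tested. The direction of both tested TRPM1 copies turned when single samples were left out.

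In humans and mice an intron of TRPM1 holds miR-211 and an intron of TRPM3 holds its relative miR-204. The location of these miRNAs in the trout genome was not examined. The miRNA-Seq table of 3 yellow mutant and 3 wild-type skin samples has 5 entries of these names, and their mature sequences are shown because they decide which entries can be told apart. The capitals mark the seed, bases 2 to 8 from the 5′ end, and the letters are DNA as deposited.
miR-204-x: tTCCCTTTgtcatcctatgcct
miR-211-z: tTCCCTTTgtcatcctatgcct
miR-211-x: tTCCCTTTgtcatcctgtgcct
miR-204-z: tTCCCTTTgttatcctatgcct
miR-204-y: gCAGGGACaacaaagggatgct
The entries miR-204-x and miR-211-z have the same sequence, so their reads cannot be told apart, and how reads were divided between these entries is not stated. The first 4 lines share 1 seed, while miR-204-y has another.

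Entry miR-204-x had 14786, 11969 and 12417 RPM (reads scaled to library size) in the yellow mutant samples, against 9100, 10643 and 16076 RPM in the wild-type samples. The groups overlapped, with a log2 fold change on log2(RPM + 1) of 0.17 (95% interval -0.39 to 0.72), and miR-211-z, with the same sequence, had 0.16. The entry miR-204-y had 70.9, 53.7 and 86.5 RPM in the yellow mutant samples, against 32.3, 32.5 and 46.6 RPM in the wild-type samples. These groups did not overlap, and the share of all miRNA entries without overlap was not computed. The log2 fold change was 0.90 (standard error 0.28, limma, unadjusted p = 0.0103). It did not pass over the 519 miRNA entries tested (limma, Benjamini-Hochberg adjusted p = 0.417, with 0 entries called, 0%, and 31 higher at an unadjusted p under 0.05, 5.97%). The entries miR-211-x and miR-204-z were near the low end of detection, at 3.90 ± 0.544 and 2.05 ± 0.843 RPM in yellow mutant and 2.66 ± 0.667 and 1.51 ± 0.521 RPM in wild-type skin (SD, n = 3 each). The TRPM3 entries of the RNA-Seq table were at 0.122 ± 0.0271 and 0.00767 ± 0.00681 FPKM in yellow mutant and 0.0970 ± 0.0360 and 0.0317 ± 0.0465 FPKM in wild-type skin (SD, n = 3 each, genes 110525413 and 110535806).

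The yellow mutant samples differed among themselves. Replicate 2 was the lowest yellow mutant sample in 8 of the 13 tested copies, against 37.3% of all genes tested. It lay below every wild-type sample in 2 of the 13, oca2 and TRPM1 (gene 110516734), against 28.7% of all genes tested. Yellow mutant replicates 1 and 3 did so in 0, against 22.4% and 28.3% of all genes tested. Replicate 2 was at or below the highest wild-type sample in 6 of the 13, against 69.9% of all genes tested. For yellow mutant replicates 1 and 3 this held in 3 and 5 of the 13, against 69.5% and 72.1% of all genes tested. Centred on their own mean over the 6 samples, the tested copies had median log2 values of 0.26, 0.07 and 0.29 in yellow mutant replicates 1, 2 and 3, against -0.27, -0.15 and -0.07 in the wild-type replicates. For the melanin enzymes and matrix proteins the same medians were 0.33, 0.05 and 0.65 in yellow mutant skin, against -0.49, -0.42 and -0.33 in wild-type skin. For all genes tested they were 0.03, -0.003 and -0.006 in yellow mutant skin. Replicate 2 also had the lowest yellow mutant median for same-family genes (-0.20), other transporters (-0.18), endothelial (-0.54) and Schwann cell markers (-0.47). It did not for cargo sorting (0.004), keratinocyte (0.17), iridophore (0.05), muscle (0.82) or erythrocyte entries (0.07). Yellow mutant replicate 2 was also the library with the lowest depth, 0.582 relative to wild-type replicate 1, whereas the other libraries lay between 0.810 and 1.01. Depth was entered as a covariate, log2 relative depth, which was -0.782 in yellow mutant replicate 2 and -0.304 to 0.012 in the other libraries. The fit with this covariate cannot tell depth apart from other traits of that library. The part of depth in these values was not tested further. In that fit 0 of all genes tested were called, so no copy could be. Of the 13 copies, 5 were higher at an unadjusted limma p under 0.05, beside 2046 of all 27268 genes tested in either direction.

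**Figure D3:**
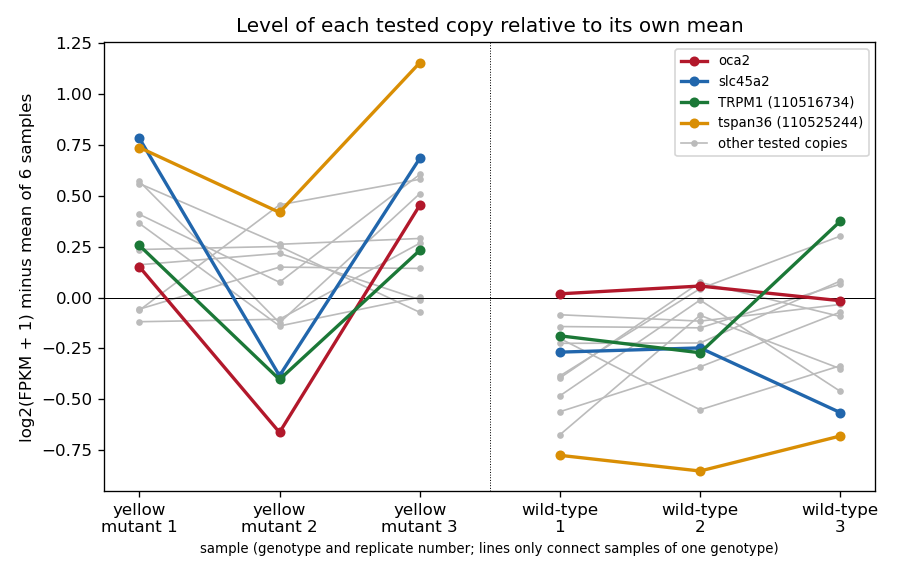
Log2(FPKM + 1) of each tested copy minus its mean over the 6 samples, by sample, with yellow mutant samples on the left and wild-type samples on the right. In yellow mutant replicate 2 oca2, slc45a2 and TRPM1 (110516734) are below 0, as are Tspan10, TRPM1 (110500983) and tspan36 (110535696). The copies tspan36 (110525244), slc24a5 (110519157) and GPR143 (110520432) stay above 0 in all yellow mutant samples and below 0 in all wild-type samples.

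To compare members with each other in the same sample, 9 ratios were formed, 4 between copies of a name and 5 over oca2. Over oca2, the log2 ratio of tspan36 (gene 110525244) was 1.75 ± 0.26 in yellow mutant and 0.18 ± 0.12 in wild-type skin. That of slc24a5 (gene 110519157) was 0.15 ± 0.31 in yellow mutant and -0.61 ± 0.20 in wild-type skin. That of slc45a2 was -0.46 ± 0.22 in yellow mutant and -1.22 ± 0.15 in wild-type skin (SD, n = 3 each throughout). In these 3 ratios every yellow mutant sample was above every wild-type sample. The level of oca2 was lowest in yellow mutant replicate 2, at 6.16 FPKM, which raises any ratio over oca2 in that sample. The share of all genes whose ratio over oca2 separates the skins was not computed. Each of the 3 had p = 0.1 (exact permutation test, two-sided), and 0.18 after Benjamini-Hochberg adjustment over the 9 ratios. The tspan36 and GPR143 copy ratios had the same p-values. The ratios of GPR143 (gene 110501648) and TRPM1 (gene 110516734) over oca2 overlapped between the skins, with differences of 0.31 and 0.10 (exact permutation test, two-sided, p = 0.6 and 0.9). With 3 samples against 3, this test cannot go below 0.1.

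**Figure D4:**
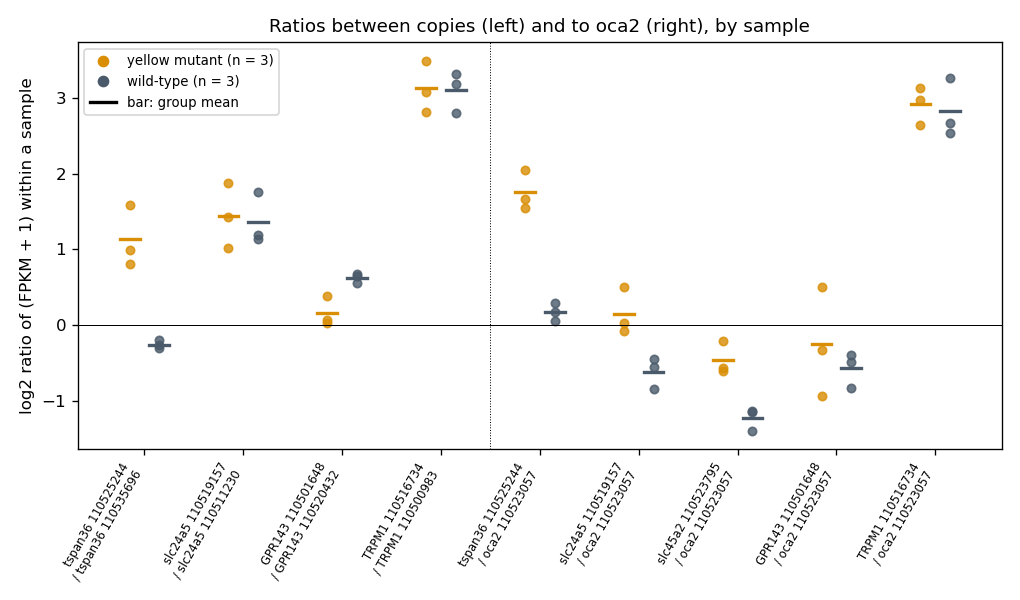
Log2 ratio of 2 members, each as FPKM + 1, within each sample, for 4 pairs of copies (left) and 5 members over oca2 (right), with yellow mutant samples to the left of wild-type samples and a bar at each mean. The ratio of tspan36 copies lies between 0.81 and 1.59 in yellow mutant skin and between -0.31 and -0.19 in wild-type skin, while the TRPM1 and slc24a5 copy ratios overlap.

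By a fixed likeness rule, the 5 named genes with the closest profile were listed for 3 members, among 21500 tested genes with a mean of at least 1 FPKM, by the root mean square difference of centred log2 values over the 6 samples. For oca2 they were HLA-DPA1 (difference 0.06), fth1-a (0.06), pldn (0.07), armc6 (0.08) and exosc5 (0.09). The gene pldn (gene 100301760), pallidin, a subunit of the complex that sorts cargo to melanosomes, had 6.80, 3.41 and 8.01 FPKM in the yellow mutant samples, against 5.84, 5.53 and 6.16 FPKM in the wild-type samples. Pallidin is also named BLOC1S6, and a BLOC1S6 entry (gene 110518754) was not among these 5 genes. It had 16.1, 14.3 and 14.0 FPKM in the yellow mutant samples, against 15.4, 15.9 and 9.76 FPKM in the wild-type samples. For slc24a5 (gene 110519157) the closest were ttc32 (0.09), PMEL (0.10), EARS2 (0.11), dnsl3 (0.13) and FLNC (0.13). The PMEL copy (gene 110528226), whose protein forms the fibrils on which melanin is laid down, had 163, 127 and 204 FPKM in the yellow mutant samples, against 94.4, 88.4 and 104 FPKM in the wild-type samples. For tspan36 (gene 110525244) the closest were slc30a8 (0.20), CISH (0.22), plin6 (0.24), mc5ra (0.25) and Gch1 (0.25), all further off than the genes listed for oca2. The genes slc30a8 and CISH were low, with means of 3.04 and 2.69 FPKM in yellow mutant and 0.591 and 0.448 FPKM in wild-type skin. The log2(FPKM + 1) scale understates their change. These likenesses are descriptions over 6 samples.

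Other melanosome genes were described by the same counts, in which no member of the 4 lists passed over all genes. Of all genes tested, 53% were higher in yellow mutant skin. At an unadjusted limma p under 0.05, 3.41% of them were higher and 2.59% lower. Of 10 tested melanin enzyme and matrix entries, 9 were higher in yellow mutant skin and 6 had an unadjusted p under 0.05, all higher, with a median log2 fold change of 0.75. The smallest p-values were those of the tyrosinase copy tyr (gene 100135828), at 21.1 ± 5.85 FPKM in yellow mutant and 9.15 ± 0.983 FPKM in wild-type skin, and of DCT (gene 110501902), a later enzyme of the pathway, at 10.8 ± 3.23 and 4.69 ± 0.173 FPKM (SD, n = 3 each, limma, Benjamini-Hochberg adjusted p = 0.301 and 0.349). The other tyr copy (gene 100135825) was at 20.44 ± 3.919 FPKM in yellow mutant and 15.87 ± 1.929 FPKM in wild-type skin (SD, n = 3 each). Its log2 fold change was 0.34 (limma, Benjamini-Hochberg adjusted p = 0.8775). The most abundant DCT copy (gene 110520164) was lower, at 53.95 ± 14.67 FPKM in yellow mutant and 61.38 ± 9.137 FPKM in wild-type skin (log2 fold change -0.21). A further DCT copy (gene 110520165) was higher, at 2.633 ± 2.785 and 0.1823 ± 0.101 FPKM (SD, n = 3 each). Of 23 tested melanophore regulator entries, 16 were higher, with 6 higher and 1 lower at an unadjusted p under 0.05 and a median of 0.17. Among them mitfa (gene 110494592), the melanocyte master regulator, was at 5.08 ± 0.422 FPKM in yellow mutant and 2.29 ± 0.450 FPKM in wild-type skin (SD, n = 3 each, limma, Benjamini-Hochberg adjusted p = 0.178), and a MITF copy (gene 110527878) at 3.47 ± 0.507 and 1.69 ± 0.501 FPKM (0.471). The other tested MITF entries had log2 fold changes from -0.13 (gene 110527898) to 0.40 (gene 110492164). The former was at 5.096 and 5.744 FPKM and the latter at 5.713 and 4.028 FPKM in yellow mutant and wild-type skin (means, n = 3 each).

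Of 49 tested entries for sorting cargo to melanosomes, 35 were higher, against 53% of all genes tested, with a median of 0.10. At an unadjusted limma p under 0.05, 6 were higher, against 3.41% of all genes tested, and 0 lower, against 2.59%. The 6 were Rab38 copies 110534809, 110503412 and 110507979, hps1, AP3M2 (gene 110525861) and VPS39 (gene 110498297), so they are not 6 separate genes. Rab38 is a small GTPase that delivers melanin enzymes. Rab38 copies 110534809 and 110503412 were at 16.4 ± 2.65 and 2.63 ± 0.261 FPKM in yellow mutant and 7.71 ± 0.361 and 1.28 ± 0.203 FPKM in wild-type skin (SD, n = 3 each, limma, Benjamini-Hochberg adjusted p = 0.158 and 0.332). Rab38 copy 110507979 was at 2.24 ± 0.919 and 1.07 ± 0.262 FPKM. The other tested copies of AP3M2 (gene 110536244) and VPS39 (gene 110504288) had log2 fold changes of -0.12 and -0.08. Of 27 tested entries for other transporters of melanosomes and lysosomes, 15 were higher, near the 53% of all genes tested, and 12 lower. Their median was 0.04, with 0 at an unadjusted p under 0.05. The smallest p-values were those of Slc7a11 (gene 110487732), a cystine importer, at 0.853 ± 0.148 FPKM in yellow mutant and 0.468 ± 0.192 FPKM in wild-type skin, and of Ostm1 (gene 110529917), a partner of a lysosomal chloride exchanger, at 19.6 ± 7.48 and 11.5 ± 0.721 FPKM (SD, n = 3 each, limma, Benjamini-Hochberg adjusted p = 0.834 and 0.842). For this Ostm1 entry, yellow mutant replicate 2, at 10.983 FPKM, lay within the wild-type range of 10.775 to 12.216 FPKM. The other Ostm1 entry (gene 110522356) was at 5.573 FPKM in yellow mutant and 5.785 FPKM in wild-type skin (means, log2 fold change -0.05). The copper genes around ATP7A, a pair each of Slc31a1 and ATOX1 entries and the tested ATP7B entry, had log2 fold changes from -0.27 to 0.26. Differences between these lists were not tested.

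**Figure D5:**
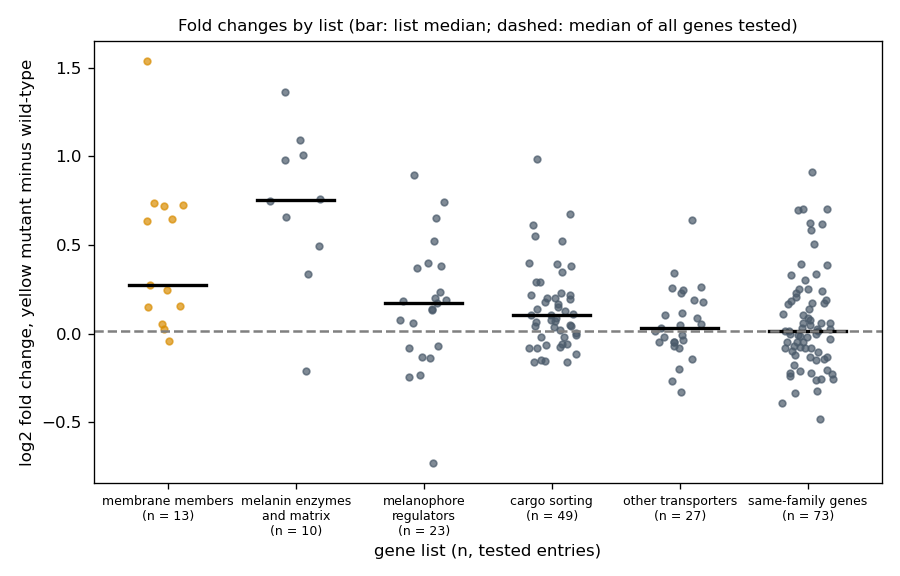
Log2 fold change (yellow mutant minus wild-type) of each tested entry in the membrane members and 5 other lists, with a bar at each list's median and a dashed line at the median of all genes tested. The medians are 0.28 for the members, 0.75 for melanin enzymes and matrix, 0.17 for regulators, 0.10 for cargo sorting, 0.04 for other transporters and 0.02 for genes of the same families.

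Across the series, a library's RNA-Seq values added up to between 396278 and 428561 FPKM, absolute depth is unknown, and correlations between libraries, taken across genes that are no replicates of each other, were 0.937 to 0.966 within and 0.932 to 0.965 between genotypes. For the marker counts below, 14456 of all 27268 genes tested (53%) were higher in yellow mutant skin and 12812 lower. At an unadjusted limma p under 0.05, 3.41% of all genes tested were higher and 2.59% lower. Every yellow mutant sample lay above every wild-type sample in 6.07%. Keratinocyte markers summed to 2133 to 2621 FPKM in yellow mutant and 1725 to 2101 FPKM in wild-type skin, with 19 of 21 tested entries higher. Of the 21, 2 were higher and 1 lower at an unadjusted limma p under 0.05. The most abundant keratinocyte entry, krt5 (gene 100136029), was at 1298 ± 222.5 FPKM in yellow mutant and 986.8 ± 161.1 FPKM in wild-type skin (SD, n = 3 each). Xanthophore markers, of yellow pigment cells, summed to 146 to 170 FPKM in yellow mutant and 66.7 to 74.5 FPKM in wild-type skin, with 9 of 13 tested entries higher, 8 higher at an unadjusted p under 0.05, 8 whose yellow mutant samples all lay above the wild-type samples, and a median log2 fold change of 0.81. The called entry, Gch1 (gene 110502330), which encodes the first enzyme of pteridine synthesis and is also in the likeness list of tspan36 above, had 50.2, 49.1 and 66.2 FPKM in the yellow mutant samples, against 12.5, 12.9 and 13.6 FPKM in the wild-type samples (log2 fold change 1.99, limma, Benjamini-Hochberg adjusted p = 0.0188). Iridophore markers, of reflecting pigment cells, summed to at most 171 FPKM in yellow mutant and 163 FPKM in wild-type skin, with 5 of 10 tested entries higher. Fibroblast markers were lower in 12 of 12 tested entries (26560 to 32900 FPKM in yellow mutant and 29390 to 37790 FPKM in wild-type skin) and endothelial markers in 8 of 8 (38.8 to 70.9 and 57.4 to 89.5 FPKM). Erythrocyte markers were lower in 9 of 9 tested entries (206 to 306 FPKM in yellow mutant and 160 to 465 FPKM in wild-type skin) and Schwann cell markers in 8 of 10 (120 to 228 and 193 to 215 FPKM). At an unadjusted limma p under 0.05, 0 fibroblast, 3 endothelial, 0 erythrocyte and 2 Schwann cell entries were lower. Muscle markers were higher in 10 of 14 tested entries (1259 to 3303 FPKM in yellow mutant and 905 to 2556 FPKM in wild-type skin). These marker lists count copies of a name as separate entries, and copies may share reads, so the entries are not independent markers. The part of these cell types in the members' values was not tested. Since several members also serve the eye, 14 entries for markers of retinal pigment epithelium and photoreceptors were checked, which summed to 6.21 to 9.07 FPKM in yellow mutant and 7.37 to 9.57 FPKM in wild-type skin. The 3 tested entries were all copies of LRAT, which esterifies retinol, with means of 0.451, 2.88 and 3.67 FPKM in yellow mutant and 1.36, 2.22 and 3.85 FPKM in wild-type skin for LRAT copies 110497453, 110500951 and 110534421. The other 11 were too low to test, among them rpe65a and the 3 rho entries, which had means of at most 0.199 FPKM in yellow mutant and 0.214 FPKM in wild-type skin.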

How the data were processed

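RNA-Seq (6 samples) and miRNA-Seq (6 samples) of dorsal skin were used, grouped by the genotype label. The deposited tables hold FPKM values, and RPM values that the authors head TPM, with the authors' log2 fold changes and p-values, per the file headers; the tests behind them are not stated. Per the submitters' processing notes, TopHat2 2.1.1 and Bowtie2 2.2.8 were tools of the study, without stating for which step; neither a genome build nor a counting tool is given in the sources used here. Entries with at least 0.5 FPKM (1 RPM) in at least 3 samples were tested on log2(value + 1) by genotype alone with limma 3.58.1 (R 4.3.3; moderated, robust, variance trend; two-sided), and p-values were adjusted over all entries tested by Benjamini-Hochberg. A miRNA without reads, written as 0.01, was set to 0. The procedure was tested on simulated data. Relative depth came from the commonest ratio of FPKM values between 0.02 and 0.3.

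The members, the 14 lists and the tests were chosen with earlier results of these data known. The rule for named genes took every copy, the members of each list past the threshold or else its 2 smallest p-values, and the likeness genes; those of most cell type lists are given by counts only. The copper genes, TRPM3, BLOC1S6, krt5, LRAT copy 110534421, rpe65a and rho fall outside that rule. So do hps1, AP3M2, VPS39 and the further Cd82, DCT, MITF, tyr, Rab38 and Ostm1 entries. All of these were chosen after their values were seen. The RhoA and RhoB entries that matched the symbol rho with a copy ending were removed after the match was seen. The miRNA entries were added after the tables were read. All 20 copies matched the RefSeq gene table, which was used only for gene order. Replicate numbers were not treated as pairs.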

Additional observations from a re-analysis of the deposited data

How the results depend on the processing

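The count of 0 members called was the same in all 14 alternatives, as was that of 0 in the other melanosome lists. Where 0 of all genes were called, as listed next, these counts could only be 0. Over all genes, 9 were called, 0 with log2 relative depth as a covariate (2046 at an unadjusted p under 0.05) and 0 with the replicate block (1795), and 0 to 14 when single replicates were left out: 14 without yellow mutant replicate 2, 13 without its replicate 1 and 0 without its replicate 3; 1 without wild-type replicate 2 and 0 without replicate 1 or 3 of that skin. The log2 fold change of tspan36 (gene 110525244) stayed between 1.34 and 1.71 over its alternatives, with adjusted p from 0.0615 to 0.416 (limma, Benjamini-Hochberg). Directions turned for oca2 with the depth covariate (0.27; -0.28 to 0.28 leaving out single replicates), for TRPM1 copy 110516734 (-0.065 to 0.27 leaving out single replicates), for TRPM1 copy 110500983 with the depth covariate (-0.0033; -0.16 to 0.18 leaving out single replicates), for the slc24a5 copy ratio with a pseudocount of 0.1 (-0.064) and for miR-204-x and miR-211-z (-0.0088 to 0.40 and -0.022 to 0.41 leaving out single replicates). The cause was not tested. The members' median was 0.19 to 0.38 leaving out single replicates and 0.15 over all 20 copies with no filter. Members at an unadjusted p under 0.05 numbered 6, and 3 without yellow mutant replicate 3, without the first wild-type replicate and with the 5 FPKM filter, which left 8 copies. All genes at that level, in either direction, numbered 1637, and 1051, 1304 and 570 in the same order of settings. Deviations of same-numbered samples correlated at -0.21 to 0.16, and 3 of 6 samples correlated best with their own number, so the numbers were not treated as pairs; whether they mark a shared origin is not in the labels. Values near 0 FPKM are limited by unknown absolute depth.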

Other observations

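Genes of the same families as the members, other exchangers, TRPM channels and tetraspanins, were higher in 38 and lower in 35 of 73 tested entries, with a median log2 fold change of 0.02, and 4 were higher and 2 lower at an unadjusted p under 0.05. Of all genes tested, 53% were higher, and 3.41% were higher and 2.59% lower at that level. The smallest p-values were those of TSPAN13 (gene 110516043), at 3.29, 2.25 and 2.54 FPKM in the yellow mutant samples, against 0.515, 1.04 and 1.40 FPKM in the wild-type samples, and of Cd82 (gene 110525455), at 15.5, 21.7 and 19.2 FPKM in yellow mutant, against 9.90, 12.1 and 13.7 FPKM in wild-type samples. Both missed the threshold (adjusted p = 0.437 and 0.678, limma with Benjamini-Hochberg). Another 3 Cd82 entries had log2 fold changes from -0.32 to -0.0017, and the most abundant of them (gene 118943872) was at 36.8 ± 10.6 FPKM in yellow mutant and 46.0 ± 10.4 FPKM in wild-type skin (SD, n = 3 each). A further entry (gene 110502669) carries the TRPM1 product name without a symbol and did not exceed 0.023 FPKM.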
